A study of Mus musculus with 6 samples.

Results

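The Hedgehog genes examined in corneal epithelial cells were the ligands *Ihh* and *Dhh*, the receptor *Ptch1*, the ligand-binding antagonist *Hhip*, the signal transducer *Smo*, its downstream inhibitor *Sufu*, and the transcription factors *Gli2* and *Gli3*. They were selected by gene symbol from a list of 9 core pathway genes, and 8 of these were analysed among the 17784 genes of the expression table. *Shh* was not analysed here. Bulk RNA-seq compared the corneal epithelium of 3 *Prrx1-creERT;Ptch1* samples, called *Ptch1*-ablated and homozygous for a floxed *Ptch1* allele in the study, with that of 3 control samples, whose genotype the labels give only as ctrl. All 6 samples came from mice labelled as 10 weeks old that received 3 doses of tamoxifen, with an interval of 2 months, and the epithelium was separated from the cornea with EDTA. *Prrx1-creERT* is a tamoxifen-inducible knock-in recombinase active in keratocytes, the cells of the stroma beneath the epithelium, and in other ocular mesenchymal cells including the corneal endothelium. It is not directed at the epithelium that was sampled. Total counts lay between 20296681 and 20625792 per sample.

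Hedgehog ligands bind the Patched receptors, which otherwise hold the membrane protein Smoothened inactive. Released Smoothened acts in the primary cilium and changes the balance of the GLI transcription factors, of which GLI2 works mainly as an activator and GLI3 mainly as a repressor, while SUFU restrains both. *Gli1*, *Ptch1* and *Hhip* are themselves induced by the pathway and serve as its usual readouts. In the eye the pathway takes part in development of the anterior segment and in repair of the corneal epithelium.

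Of the 8 genes, 6 were detected in the epithelium and 2 were not. A gene was called detected with at least 10 counts in every sample. *Ptch1*, *Hhip*, *Smo*, *Sufu*, *Gli2* and *Gli3* met this, whereas the ligands *Ihh* and *Dhh* had at most 3 counts in every sample, the limit that a count of 0 allows. These 6 genes passed the filter on low counts, and edgeR's quasi-likelihood test was run on them among 12999 genes. *Gli3* rose and *Ptch1* fell, each with an adjusted p (Benjamini-Hochberg) no higher than 0.05, which is what passing the test means below. This threshold was met by 14.0% of all tested genes, 7.61% higher and 6.41% lower in *Ptch1*-ablated samples. None of the 6 genes also reached a 2-fold change, the second part of the study's definition of a differentially expressed gene. That definition was met by 3.23% of tested genes, 2.34% higher and 0.892% lower. The median log2 fold change was 0.08 over the 6 genes and -0.01 over all tested genes. At an unadjusted p under 0.05, edgeR gave 4 of the 6, beside 4358 of all 12999 genes, and DESeq2 and limma-voom, like edgeR, gave 0 of the 6 with both criteria. The groups did not overlap for *Ptch1*, *Hhip*, *Smo* and *Gli3*, 2 lower and 2 higher. Separation of this kind was found in 39.9% of tested genes, 19.7% higher and 20.3% lower.

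The samples carried the markers of corneal epithelium. *Krt12*, the keratin of differentiated corneal epithelial cells, had a mean level of 46897 TPM (the deposited unit scaled for transcript length and library size) in control samples and 42577 TPM in *Ptch1*-ablated samples, and 10 of 10 listed corneal epithelial markers were detected, of which *Krt14* alone passed the test. Markers of stromal keratocytes were scarce but not equal among samples. Their summed level was 14.5, 12.2 and 66.2 TPM in control replicates 1, 2 and 3, and 13.9, 15.3 and 11.1 TPM in *Ptch1*-ablated replicates 1, 2 and 3. Control replicate 3 thus stood apart, with 1276 counts of *Col1a2*, where the other samples had 4 to 128. Through this replicate *Col1a2* had the highest mean TPM of the list in control samples. In control replicates 1 and 2 it had 1.69 and 0.91 TPM, below the 6.91 and 6.5 TPM of *Pdgfra*. *Prrx1*, the gene whose locus drives the recombinase, had 23, 15 and 215 counts in control replicates 1, 2 and 3 and 32, 35 and 2 in *Ptch1*-ablated replicates 1, 2 and 3. *Kera*, which encodes keratocan and defines keratocytes, had at most 1 count in any sample. Of the 17 keratocyte markers measured, 4 were detected, and 0 of the 8 tested passed. All 8 had a log2 fold change below 0, with a median of -0.91. For all of the 8 except *Fmod* and *Pdgfra*, this direction of the group means rested on control replicate 3. These were *Col1a2*, *Prrx1*, *Vim*, *Angptl7*, *Col5a1* and *Col5a2*. *Vim* had 38.75, 28.51 and 341.67 normalized counts in control replicates 1, 2 and 3 and 50.65, 45.15 and 15.93 in *Ptch1*-ablated samples. *Angptl7* had 6.96, 10.81 and 20.38 against 11.37, 9.24 and 12.94. *Col5a1* had 40.7, 35.4 and 141 normalized counts in control replicates 1, 2 and 3 and 78.6, 55.4 and 51.8 in *Ptch1*-ablated samples. *Col5a2* had 31.8, 19.7 and 151 against 41.4, 71.8 and 66.7. *Fmod*, also among the 8, encodes the collagen-binding proteoglycan fibromodulin. It had 34.8, 24.6 and 29.1 normalized counts in control samples and 8.27, 7.18 and 19.9 in *Ptch1*-ablated samples, all lower (log2 fold change -1.31, edgeR adjusted p = 0.0710). *Pdgfra*, a growth factor receptor of mesenchymal cells, had 428, 389 and 327 against 210, 344 and 252, which overlapped (log2 fold change -0.51, edgeR adjusted p = 0.107). The lower values of *Fmod* and *Pdgfra* stood beside those of *Ptch1* and *Hhip*. *Dcn* and *Ptgds*, of the same list but too low to be tested, went the other way in every *Ptch1*-ablated sample. *Dcn* had 5, 1 and 6 counts in control samples and 15, 9 and 23 in *Ptch1*-ablated samples. *Ptgds* had 1, 1 and 1 against 7, 2 and 3. Without control replicate 3 the log2 fold change was -0.43 for *Ptch1*, 0.72 for *Gli3*, 0.85 for *Smo* and -0.63 for *Hhip*, with edgeR adjusted p of 0.105, 0.0315, 0.0920 and 0.213.

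Other cells that could accompany the epithelium left weak or shared signals. Vascular endothelial markers summed to at most 0.32 TPM in any sample, led by *Pecam1*. In the Schwann cell and nerve list, relevant because Schwann cells are a known source of *Dhh*, *Sox10* had at most 1 count, and the list's abundant genes, *Erbb3* and *Mbp*, had 102 and 79.0 TPM in control and 111 and 87.4 TPM in *Ptch1*-ablated samples. *Egr2*, a Schwann cell factor that is also an early response gene, was the 1 gene of 6 tested there that passed. Immune markers summed to 114 to 152 TPM in control samples and to 149 to 195 TPM in *Ptch1*-ablated samples, mostly *Itgam*, while *Ptprc*, the pan-leukocyte marker, had at most 9 counts, and 0 of 2 tested passed. The corneal endothelial markers were uneven in level, and 0 of 3 tested passed. *Col8a2* had at most 4 counts. *Col8a1* had 7, 5 and 7 counts in control replicates 1, 2 and 3 and 26, 2 and 7 in *Ptch1*-ablated replicates 1, 2 and 3. *Slc4a11* was detected, with 666, 764 and 684 counts in control samples and 724, 809 and 801 in *Ptch1*-ablated samples. Whether the *Slc4a11* counts came from endothelial cells was not tested. Melanocyte markers summed to 8.19 to 10.1 TPM over all samples, led by *Pmel*, and 0 of 3 tested passed. Limbal markers, led by *Krt15* in control samples, summed to 1718 to 2936 TPM in control samples and to 5064 to 9620 TPM in *Ptch1*-ablated samples without overlap. *Krt14*, which is also on the corneal epithelial list, was the 1 of 5 tested that passed (log2 fold change 2.81, edgeR adjusted p = 0.00769). It had a mean of 571 TPM in control and 3824 TPM in *Ptch1*-ablated samples, and for each other tested gene of the limbal list the groups overlapped. Conjunctival markers, led by *Krt13*, summed to 1420 to 2364 TPM and to 2210 to 4751 TPM, with 1 of 5 tested, *Krt8*, passing in the lower direction. The part of these cells in the Hedgehog results was not tested. In bulk samples, fewer cells of a type and less RNA per cell cannot be told apart.

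The ligands are the secreted proteins that open the pathway. *Ihh* (gene 16147), Indian Hedgehog, had 0, 1 and 2 counts in control replicates 1, 2 and 3 and 2, 1 and 0 in *Ptch1*-ablated replicates 1, 2 and 3. *Dhh* (gene 13363), Desert Hedgehog, had 0, 1 and 1 counts in the control samples and 1, 2 and 0 in the *Ptch1*-ablated samples. Neither ligand exceeded the floor in any sample, so no fold change is given, and transcription of either was not detectable at this depth, where 3 counts correspond to 0.145 to 0.148 CPM, that is counts scaled to library size. Machinery for releasing ligands was present in part. *Disp1*, which exports lipid-modified Hedgehog proteins, was the most abundant of its list of 6 with 8.98 TPM in control and 8.32 TPM in *Ptch1*-ablated samples. *Hhat*, the acyltransferase that completes the ligands, stood at 1.75 and 2.11 TPM. These were the 2 genes of the list that could be tested, and both missed the threshold (log2 fold change -0.06 and 0.32, edgeR adjusted p = 0.760 and 0.365). The secreted carriers *Scube1* and *Scube3* were low, and *Scube2* and *Disp2* did not exceed the floor.

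**Figure D1:**
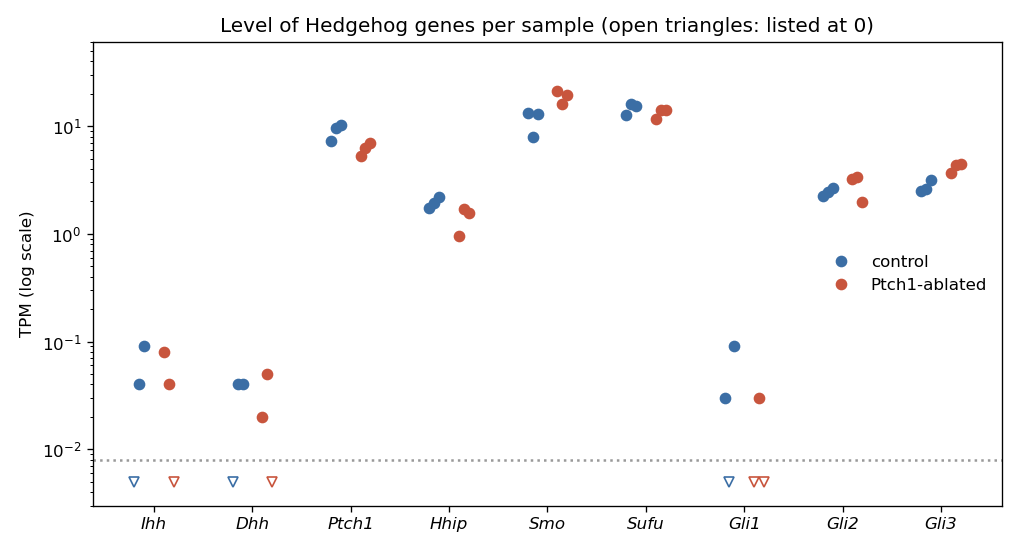
Level of each Hedgehog gene in TPM on a log axis, with 1 point per sample for 3 control (blue) and 3 *Ptch1*-ablated (red) samples, and values listed at 0 as open triangles beneath the dotted line. The ligands *Ihh* and *Dhh* and the target gene *Gli1* lie below 0.1 TPM, and the other 6 genes lie between 0.95 and 21.3 TPM.

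*Ptch1* (gene 19206), the receptor that silences Smoothened and the gene floxed in the mutant mice, was lower in the epithelium of *Ptch1*-ablated mice. The control samples had 517, 659 and 682 normalized counts and the *Ptch1*-ablated samples 390, 445 and 471. All 3 *Ptch1*-ablated samples were below the lowest control sample, by a margin smaller than the range within the controls. On the log2 scale the change was -0.51 (SE 0.13, edgeR adjusted p = 0.0401), and expression fell by 29.7%. The call did not hold in every fit. With control replicate 2 or 3, or *Ptch1*-ablated replicate 1, 2 or 3, left out, edgeR's adjusted p was 0.143, 0.105, 0.0818, 0.0823 and 0.0564, and without control replicate 1 it was 0.0347, with log2 fold changes between -0.62 and -0.43. Limma on log2 TPM gave 0.0781 and 0.0785 with pseudocounts of 1 and 0.1, and 0.133 without a filter. A count over the whole gene does not separate the floxed exons from the rest, so it does not measure recombination.

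*Hhip* (gene 15245) encodes a membrane protein that captures Hedgehog ligands and, like *Ptch1*, is a pathway target. It had 124, 163 and 183 normalized counts in control samples and 62.0, 123 and 93.6 in *Ptch1*-ablated samples. The groups met almost edge to edge, since *Ptch1*-ablated replicate 2 lay just under control replicate 1. The log2 fold change of -0.76 (95% interval -1.37 to -0.14) missed the threshold, with an adjusted p of 0.0911 from edgeR's test. DESeq2 gave 0.0475.

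The measured size of the *Hhip* difference also depended on the unit. The log2 ratio of the group means was -0.76 in normalized counts and -0.49 in TPM. RSEM weights gene length by the transcript isoforms it assigns, and dividing the deposited counts by the deposited FPKM gives the effective length in each sample. For *Hhip* this was 7329, 9034 and 9054 bases in control replicates 1, 2 and 3 and 6464, 7463 and 6523 bases in *Ptch1*-ablated replicates 1, 2 and 3. Control replicates 2 and 3 were longer than every other sample, and control replicate 1 lay among the *Ptch1*-ablated samples. The ratio of the longest to the shortest was 1.40 for *Hhip*, a ratio reached by 0.370% of 11349 tested genes with an FPKM of at least 0.45 in every sample. For the other 5 detected genes the effective length was nearly constant.

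**Figure D2:**
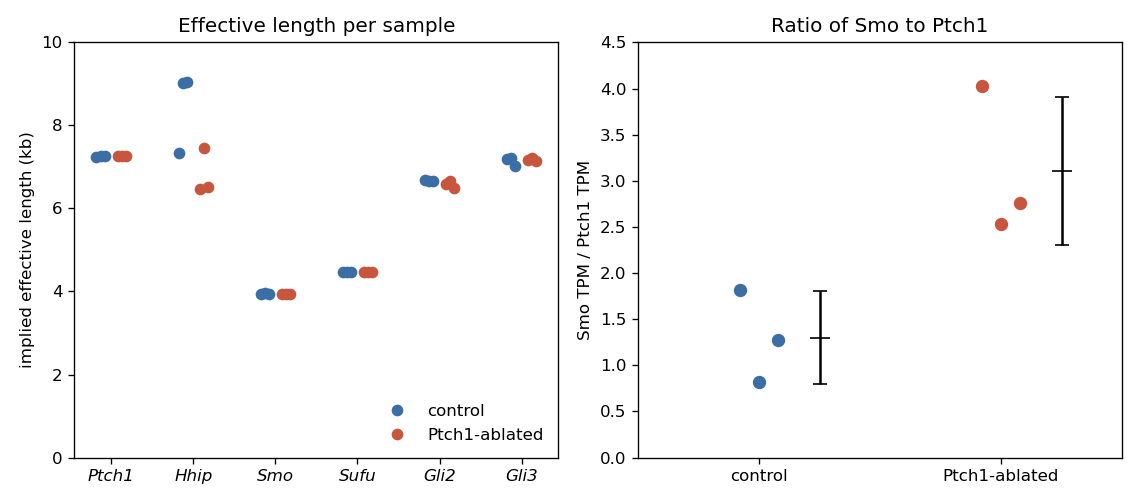
Left, effective gene length in kilobases implied by the deposited counts and FPKM, 1 point per sample, for the 6 detected genes. *Hhip* varies most, from 6464 to 9054 bases. Right, ratio of *Smo* to *Ptch1* TPM in each sample with the mean and SD (n = 3). The *Ptch1*-ablated samples (2.53 to 4.02) lie above the control samples (0.813 to 1.82).

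For these target genes and for *Gli3*, the gene that rose, the 250 bases before the annotated start are shown because GLI factors recognise the consensus GACCACCCA. The sequences are RefSeq's on build GRCm38.p6, a later build than the mm9 named in the submitters' processing notes, and were matched by symbol for all 8 genes. Each is written 5′ to 3′ along the gene, with capitals for the central CCACCC of the consensus on either strand.

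Ptch1, chr13:63565736-63565985, minus strand: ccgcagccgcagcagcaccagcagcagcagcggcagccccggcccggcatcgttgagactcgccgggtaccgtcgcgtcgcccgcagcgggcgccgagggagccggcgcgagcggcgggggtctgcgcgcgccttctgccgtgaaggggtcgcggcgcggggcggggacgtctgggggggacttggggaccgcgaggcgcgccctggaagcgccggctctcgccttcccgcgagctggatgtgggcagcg

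Hhip, chr8:80058009-80058258, minus strand: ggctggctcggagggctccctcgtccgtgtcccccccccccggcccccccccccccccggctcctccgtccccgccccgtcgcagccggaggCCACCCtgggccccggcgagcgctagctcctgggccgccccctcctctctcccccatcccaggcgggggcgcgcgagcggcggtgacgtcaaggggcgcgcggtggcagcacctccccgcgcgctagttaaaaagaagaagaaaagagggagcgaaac

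Gli3, chr13:15463473-15463722, plus strand: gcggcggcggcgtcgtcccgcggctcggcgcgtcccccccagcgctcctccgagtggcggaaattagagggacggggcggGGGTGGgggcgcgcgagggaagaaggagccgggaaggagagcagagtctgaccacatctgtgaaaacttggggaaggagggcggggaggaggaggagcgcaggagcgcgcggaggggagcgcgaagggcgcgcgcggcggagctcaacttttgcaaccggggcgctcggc

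The full consensus was found on neither strand in the 8 windows, which each also take in 50 bases after the start, and in 0.253% of all 32851 promoter windows of that length. The shorter CCACCC, which lies within the consensus, was found in 6 of the 8, including *Hhip* and *Gli3* but not *Ptch1* or *Sufu*, and in 31.5% of all windows. A match of letters is a description of the sequence and not a binding site.

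*Gas1*, *Cdon* and *Boc* encode co-receptors, surface proteins that help Patched bind ligand, and each had a higher mean TPM than *Ptch1* in control samples. *Gas1* was the most abundant of the 8 other receptors and co-receptors, with 140 ± 25.1 TPM (SD, n = 3) in control samples. It had 3362, 4210 and 4568 normalized counts in control samples and 2566, 3415 and 3110 in *Ptch1*-ablated samples, which overlapped (log2 fold change -0.42, edgeR adjusted p = 0.0841). *Cdon*, at 19.2 TPM in control samples, fell from 1221, 1334 and 1327 normalized counts to 823, 1056 and 1009. Its log2 fold change was -0.43 (SE 0.10, edgeR adjusted p = 0.0368). *Boc* stood at 29.4 and 34.1 TPM and missed the threshold (log2 fold change 0.25, edgeR adjusted p = 0.157).

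*Gpc3* encodes glypican 3, a cell surface proteoglycan that binds Hedgehog ligands in competition with Patched. It had 727, 1115 and 1042 normalized counts in control samples and 326, 405 and 302 in *Ptch1*-ablated samples. The highest *Ptch1*-ablated sample was well below the lowest control sample. The log2 fold change was -1.48 (SE 0.18, edgeR adjusted p = 0.00773). Among 55 tested pathway genes outside the core list, *Gpc3* was the 1 to meet both the adjusted p and the 2-fold criterion. Both were met by 3.23% of all tested genes, 2.34% higher and 0.892% lower. In all 16 alternatives, including the 6 that each left out 1 sample, *Gpc3* met both, with log2 fold changes from -1.65 to -1.36. Of the 6 receptors and co-receptors tested, 2 fell, 0 rose and 4 did not pass, with a median log2 fold change of -0.36. Of all tested genes 6.41% fell and 7.61% rose at this threshold, with a median of -0.01.

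*Smo* (gene 319757), the transducer that Patched inhibits, had the highest log2 fold change of the detected core genes, 0.77 (95% interval 0.27 to 1.26). The control samples had 511, 292 and 473 normalized counts and the *Ptch1*-ablated samples 852, 612 and 706. Every *Ptch1*-ablated sample was above every control sample, and control replicate 2 was well below the other controls. The edgeR adjusted p of 0.0529 lay just outside the threshold. DESeq2 gave 0.00353 and limma-voom 0.0497, and edgeR gave 0.0493 when at least 10 counts were required in every sample, so the call turned on the tool and on the filter. Without control replicate 2 the log2 fold change was 0.55, with an adjusted p of 0.110 from edgeR.

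*Smo* and *Ptch1* lay on opposite sides of 0, and their ratio was computed after those values were seen. The TPM of *Smo* over that of *Ptch1* was 1.82, 0.813 and 1.27 in control replicates 1, 2 and 3 and 4.02, 2.53 and 2.76 in *Ptch1*-ablated replicates 1, 2 and 3. The group means were 1.30 ± 0.50 and 3.11 ± 0.80 (SD, n = 3). Since every *Ptch1*-ablated sample was higher for *Smo* and lower for *Ptch1*, the ratio had to separate the groups, and no test of it is given.

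*Sufu* (gene 24069), the cytoplasmic inhibitor that binds GLI proteins, had 554, 675 and 636 normalized counts in control samples and 535, 612 and 590 in *Ptch1*-ablated samples. The groups overlapped, and the log2 fold change was -0.10 with a 95% interval of -0.33 to 0.12 (edgeR adjusted p = 0.499). The interval lies well inside a 2-fold change in either direction.

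Among the transcription factors, *Gli3* (gene 14634) rose. It had 175, 175 and 205 normalized counts in control samples and 266, 306 and 293 in *Ptch1*-ablated samples, with a clear gap between the groups. The log2 fold change was 0.64 (SE 0.11, edgeR adjusted p = 0.0166), an increase of 55.7%. The adjusted p rose to 0.0546 without control replicate 1 and to 0.0823 without control replicate 2, and was 0.0462 or lower without any other single sample. Limma on log2 TPM gave 0.0635 and 0.0660 with pseudocounts of 1 and 0.1, and 0.101 without a filter.

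*Gli2* (gene 14633) had 146, 152 and 164 normalized counts in control samples and 215, 219 and 119 in *Ptch1*-ablated samples. Replicates 1 and 2 of the *Ptch1*-ablated group were above all controls and replicate 3 below all of them. Its log2 fold change of 0.26 had a 95% interval of -0.27 to 0.79 (edgeR adjusted p = 0.467). Without *Ptch1*-ablated replicate 1, 2 or 3 the log2 fold change was 0.13, 0.11 and 0.49, with edgeR adjusted p of 0.755, 0.796 and 0.0533. *Gli1*, the factor whose transcription reports pathway activity most directly, had 1, 0 and 3 counts in control replicates 1, 2 and 3 and 0, 1 and 0 in *Ptch1*-ablated replicates 1, 2 and 3. It therefore did not exceed the floor in any sample of either group.

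**Figure D3:**
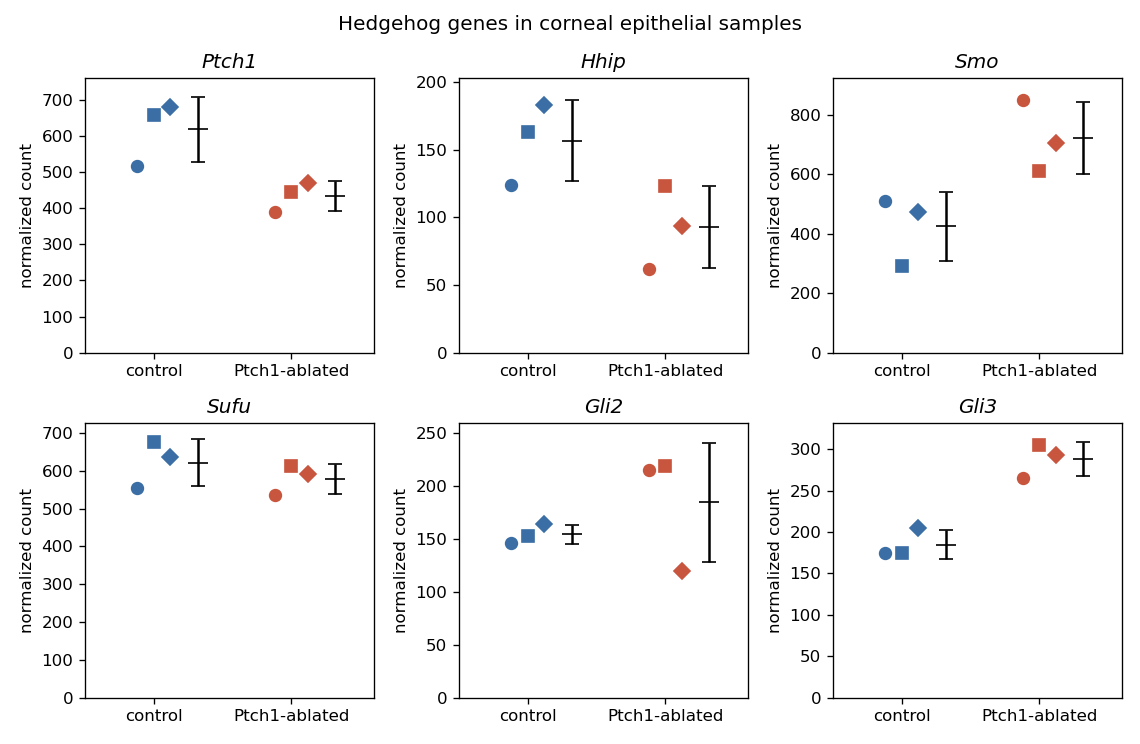
Normalized counts of the 6 detected Hedgehog genes in 3 control (blue) and 3 *Ptch1*-ablated (red) samples, on axes that start at 0. Circles, squares and diamonds are replicates 1, 2 and 3, and the black bars give the mean and SD. The groups are apart for *Ptch1*, *Hhip*, *Smo* and *Gli3* and overlap for *Sufu* and *Gli2*.

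Compared per length, the levels of the 6 genes fell into a higher and a lower set. In control samples *Sufu* was the highest at 14.8 ± 1.81 TPM (SD, n = 3), followed by *Smo* at 11.4 ± 3.03 TPM and *Ptch1* at 9.07 ± 1.54 TPM. The ranges of neighbours in this order overlapped. *Gli3* (2.75 ± 0.37 TPM) and *Gli2* (2.46 ± 0.22 TPM) came next, apart from *Ptch1* and overlapping with each other, and *Hhip* (1.96 ± 0.23 TPM) lay below both. In *Ptch1*-ablated samples *Smo* was at the top with 18.9 ± 2.65 TPM, and its range no longer overlapped that of *Sufu* (13.4 ± 1.40 TPM). *Ptch1* stood at 6.21 ± 0.87 TPM, *Gli3* at 4.15 ± 0.44 TPM, *Gli2* at 2.86 ± 0.77 TPM and *Hhip* at 1.40 ± 0.40 TPM.

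Beyond the core genes, most of the pathway's intracellular machinery was expressed. Of 63 other pathway genes listed, 62 were measured, 55 were tested, 1 rose, 3 fell and 51 did not pass. At the same threshold 14.0% of all tested genes passed, 7.61% higher and 6.41% lower. The median log2 fold change of the 55 was -0.04, beside -0.01 for all tested genes. Among 27 tested transducers, whose median log2 fold change was 0.09, *Gsk3b* was the 1 that passed. It encodes a kinase that marks GLI proteins for processing and also acts in Wnt signaling. It had 3317, 3471 and 3428 normalized counts in control samples and 4238, 4044 and 3942 in *Ptch1*-ablated samples (log2 fold change 0.26, SE 0.06, edgeR adjusted p = 0.0331). The most abundant transducers were *Gnas*, which encodes the stimulatory G protein that opposes Smoothened, at 575 TPM in control samples, and *Csnk1a1*, a casein kinase, at 191 TPM, and both missed the threshold (edgeR adjusted p = 0.287 and 0.418). *Kif7* and *Stk36*, kinesin and kinase partners of the GLI proteins, were detected near 1 TPM or below.

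All 20 genes for transport in the primary cilium, the organelle in which Smoothened acts, were detected. *Inpp5e*, which encodes a ciliary phosphoinositide phosphatase, fell from 788, 808 and 785 normalized counts to 572, 625 and 691 (log2 fold change -0.34, SE 0.09, edgeR adjusted p = 0.0421). The other 19 did not pass, where 14.0% of all tested genes passed. The median log2 fold change of the 20 was -0.13, with 4 above 0, beside a median of -0.01 for all tested genes. *Ift52*, an intraflagellar transport subunit and the most abundant of the list at 48.7 TPM in control samples, had a log2 fold change of -0.01 (edgeR adjusted p = 0.935).

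**Figure D4:**
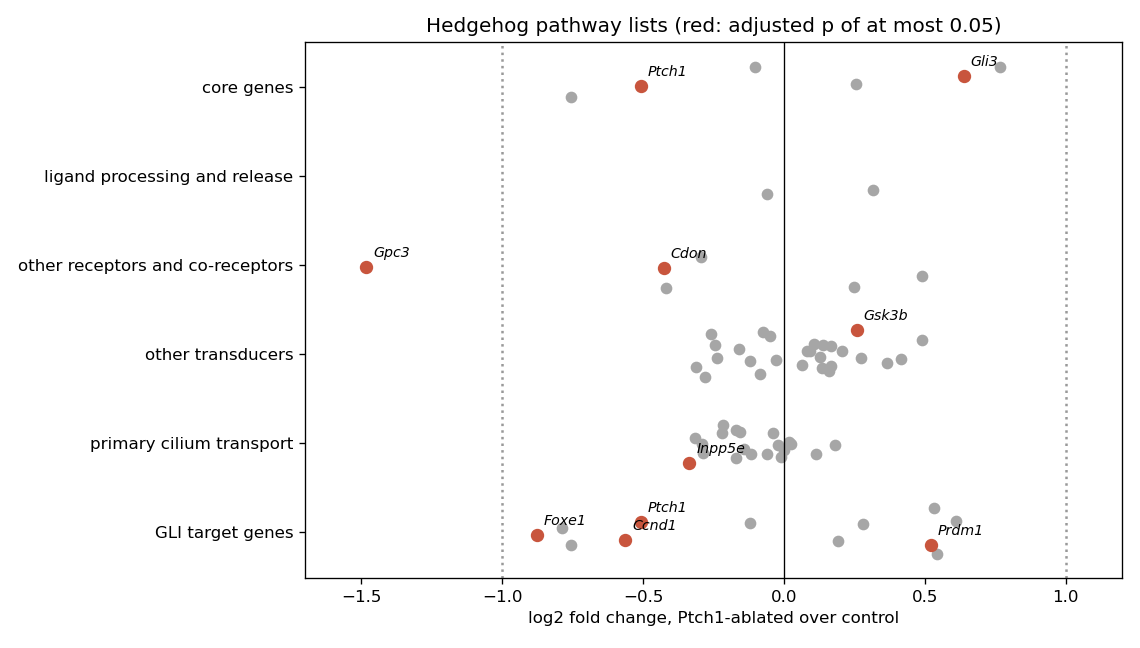
Log2 fold change of *Ptch1*-ablated over control samples for the tested core genes and the other pathway lists, 1 point per gene with random vertical spread. Red points with names have an adjusted p of at most 0.05 in edgeR, and the dotted lines mark a 2-fold change, which *Gpc3* alone exceeds.

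The listed GLI target genes moved in both directions. Of 19 genes, 18 were measured and 12 tested, of which 1 rose, 3 fell and 8 did not pass. Of all tested genes 14.0% passed, 7.61% higher and 6.41% lower. The median log2 fold change of the 12 was 0.04, beside -0.01 for all tested genes. *Ptch1* was among those that fell. *Ccnd1*, which encodes the G1 cyclin D1 and was the most abundant target at 276 TPM in control samples, had 10607, 9922 and 8793 normalized counts in control samples and 5685, 7613 and 6559 in *Ptch1*-ablated samples. Its log2 fold change was -0.56 (SE 0.12, edgeR adjusted p = 0.0267). *Ccnd2*, the second most abundant, had 3369, 3513 and 2956 normalized counts against 1177, 2349 and 2172 and missed the threshold (log2 fold change -0.79, edgeR adjusted p = 0.0609). *Foxe1*, a forkhead factor, fell from 57.6, 62.9 and 65.0 normalized counts to 27.9, 43.1 and 29.9 (log2 fold change -0.88, edgeR adjusted p = 0.0453). *Prdm1*, a transcriptional repressor that also marks epithelial differentiation, rose from 1930, 1877 and 1814 normalized counts to 2759, 2415 and 2889 (log2 fold change 0.52, SE 0.08, edgeR adjusted p = 0.0119). The classical mesenchymal targets were at the edge of detection, with *Foxf1* at or below the floor and *Foxf2* low. Each of these genes answers to other pathways as well.

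Several of these calls were lost in other fits, while the direction of each was kept. When 1 sample was left out at a time, edgeR's adjusted p passed 0.05 in 5 of 6 fits for *Prdm1*, in 3 for *Ccnd1*, in 2 for *Cdon* and in 1 each for *Foxe1*, *Inpp5e* and *Gsk3b*. For each of the 6 genes the highest adjusted p was that without control replicate 2, at 0.0683, 0.105, 0.132, 0.146, 0.142 and 0.114 in the same order. *Ccnd1* also missed the threshold without control replicate 1 or *Ptch1*-ablated replicate 3, and *Cdon* without control replicate 1 or 3 or *Ptch1*-ablated replicate 3. The single fit in which the gene passed left out *Ptch1*-ablated replicate 2 for *Foxe1* and *Ptch1*-ablated replicate 3 for *Inpp5e* and *Gsk3b*. The log2 fold changes over these fits were 0.47 to 0.59 for *Prdm1*, -0.68 to -0.46 for *Ccnd1*, -0.50 to -0.32 for *Cdon*, -1.10 to -0.76 for *Foxe1*, -0.41 to -0.27 for *Inpp5e* and 0.23 to 0.28 for *Gsk3b*. Without control replicate 2 the number of all genes that passed also dropped, to 93 of 13219. Over all 16 alternatives, *Prdm1* passed in 15, *Ccnd1* in 12, *Cdon* in 9, *Foxe1* and *Gsk3b* in 8 and *Inpp5e* in 7.

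The genes whose profiles over the 6 samples were most like those of the 2 core genes that passed were found by the root mean square difference of mean-centred log2 CPM. For *Ptch1* these were *Auts2*, *Znrd1as* and *Mtg2*, with differences between 0.0539 and 0.0543. For *Gli3* they were *Gm7972*, *Blm* and *Fanci*, with differences between 0.0627 and 0.0743. Both sets follow the group means, with log2 fold changes from -0.57 to -0.45 and from 0.63 to 0.69.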

How the data were processed

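Bulk RNA-seq of corneal epithelial cells was analysed in 3 control and 3 *Ptch1*-ablated samples, grouped by their titles. Per the submitters' processing notes, reads were aligned with Bowtie2 2.2.5 to mm9 and quantified with RSEM 1.2.12. The authors deposited RSEM expected counts, which are not scaled for depth, and TPM and FPKM values, which are scaled for gene length and depth. The study describes rRNA depletion and a BGISEQ platform, the labels an Illumina kit, and strandedness is not given in the sources used here.

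RSEM divides reads that map to several places, and 39.4% of expected counts above 0 were not whole. They were rounded. The authors' group means were not used, and FPKM served only for effective lengths. Of 17784 genes, 12999 passed filterByExpr and were tested in edgeR 4.0.16 (R 4.3.3; quasi-likelihood, TMM factors 0.960 to 1.03), with Benjamini-Hochberg adjustment over all tested genes. Normalized counts are TMM-scaled counts at the mean library size. Standard errors are the log2 fold change over the square root of F, and intervals are 95%. Levels between genes are TPM. The floor of 3 counts covers counting error only.

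Core genes were named whatever their values. From 5 further pathway lists, genes with an adjusted p of at most 0.05 and the 2 most abundant were named, and from 9 marker lists the most abundant gene (for 1 list not reported here) and genes with 0 counts throughout, of which there were none. *Boc*, *Kif7*, *Stk36*, pathway genes at low counts and other markers were named after their values were seen. Genes and lists were chosen with earlier results of these data known. An exact test of 3 against 3 cannot go below p = 0.1. The study calls samples of a group biological replicates, and they differed by more than sampling noise (chi-square per degree of freedom 10.6 to 40.0). Alternatives were DESeq2 1.42.0, limma 3.58.1 (voom, and log2 TPM with pseudocounts of 1 or 0.1), RLE and upper-quartile factors, other filters, a replicate block and leaving out each sample. On simulated data for this comparison (12999 genes), edgeR recovered 88.5% of 200 genes shifted up or down by 1.5 on the log2 scale, and 1.12% of its calls were false. These calls needed the 2-fold change as well as the adjusted p. No core gene changed by more than 0.77, and shifts of that size were not simulated.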

Additional observations from a re-analysis of the deposited data

How the results depend on the processing

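All 96 fits of a detected core gene under an alternative kept its direction. In 77 the side of the adjusted p threshold was kept, in 13 a gene no longer passed and in 6 a gene newly passed. The number of core genes that passed was 2, where 14.0% of all genes passed. It was 4 with DESeq2 (19.4% of all genes), 3 with limma-voom (13.5%) and with at least 10 counts required in every sample (14.6%), and 0 with limma on log2 TPM under a pseudocount of 1, 0.1, or 1 without a filter (12.2%, 11.9% and 4.49%). It was 0 to 1 when 1 sample was left out (0.704% to 10.1%). Of the other pathway genes 4 passed, 6 with DESeq2, 1 under each of the 3 TPM settings and 1 to 3 when 1 sample was left out. Of the GLI target genes 4 passed, 9 with DESeq2, 1 with limma on unfiltered log2 TPM and 0 to 3 when 1 sample was left out. The number of core genes meeting the 2-fold criterion as well was 0 under all alternatives. Leaving out 1 sample lowered the number of genes passing in the whole table from 1822 to between 93, without control replicate 2, and 1325, without *Ptch1*-ablated replicate 3. Limma on unfiltered log2 TPM gave 798. The cause of these changes was not tested. The 6 detected core genes were also those with a mean control TPM of at least 1 or 0.1.

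Same-numbered samples did not deviate together (r = 0.105, -0.0137 and 0.0189 across genes, for numbers 1, 2 and 3), so the numbers were not taken as pairs, and control replicate 2 correlated best with *Ptch1*-ablated replicate 3. A replicate block gave 4 core genes that passed, *Ptch1*, *Smo*, *Gli3* and *Hhip*, 5 other pathway genes and 5 GLI target genes, where 14.6% of all genes passed, and *Foxe1* and *Inpp5e* missed the threshold (edgeR adjusted p = 0.0569 and 0.0527). Depth was nearly equal, and it limits the statements on *Ihh*, *Dhh*, *Gli1* and the other genes given as low or at the floor.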

Other observations

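Other ratios between core genes were computed after the values of the single genes were seen. The ratio of *Gli3* to *Gli2* TPM was 1.11, 1.06 and 1.18 in control replicates 1, 2 and 3 and 1.14, 1.29 and 2.24 in *Ptch1*-ablated replicates 1, 2 and 3. The high value of *Ptch1*-ablated replicate 3 comes with its low *Gli2* level, and an exact two-sided permutation test gave p = 0.2. The ratio of *Sufu* to *Gli2* TPM was 5.65, 6.59 and 5.75 in control replicates 1, 2 and 3 and 3.67, 4.16 and 7.20 in *Ptch1*-ablated replicates 1, 2 and 3 (exact permutation test, p = 0.4). The ratio of *Hhip* to *Ptch1* TPM was 0.218 ± 0.020 and 0.223 ± 0.044 (SD, n = 3), with overlapping groups (exact permutation test, p = 0.9). Of the 3 ratios tested here, none could reach p under 0.05 with 3 samples a group.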
